A study of Rattus norvegicus with 16 samples.

Results

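Hox genes encode homeodomain transcription factors that lie in 4 clusters, HoxA to HoxD, and give cells their position along the body axis. Within a cluster the genes are numbered by paralogue group from 1 to 13, and genes with high numbers are used towards the tail end of the embryo. The prostate grows from the urogenital sinus, a posterior structure, and paralogue group 13 is known for its part in prostate growth: Hoxb13 is used as a marker of prostate epithelium, and Hoxa13 and Hoxd13 take part in branching of the gland. Hox proteins bind DNA together with TALE cofactors of the Pbx, Meis and Pknox families, and retinoic acid is a classical inducer of the low-numbered members in embryos.

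The members are all symbols made of Hox, a cluster letter and a number in either of 2 count tables, which hold 28688 entries for postnatal day (PND) 21 and 24218 for PND540. There were 39 such symbols: 11 in HoxA, 10 in HoxB, 9 in HoxC and 9 in HoxD. Both tables name 35 of them, and Hoxa5, Hoxa6, Hoxa10 and Hoxa13 stand only in the PND540 table.

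Messenger RNA had been sequenced from the ventral prostate of rat offspring. Control (CTR) dams received a normal gestational diet with 17% protein, and GLLP dams a low protein diet with 6% protein during gestation and lactation. The strain is not given in the labels. There were 4 CTR and 3 GLLP libraries at PND21, and 5 CTR and 4 GLLP libraries at PND540. Litters are not named in the labels, so a p-value here reflects only how much the sampled glands varied.

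Libraries held 28748604 to 39161666 counts. The tissue label fitted its summed markers. The ventral prostate secretory genes, 8 of 8 named at PND21 and 7 of 8 at PND540, summed to 18760 to 109800 CPM (counts scaled to library size). Single genes could differ from the sum: Pbsn ran from 93.79 to 327.4 CPM at PND21 and from 0.03909 to 40.79 CPM at PND540. The listed seminal vesicle genes, 2 of 6 named at PND21 and 5 of 6 at PND540, summed to at most 0.168 CPM. The 2 tables name different sets of genes, with 19709 named in both, and the annotation behind each is not given. A difference in annotation and one of age therefore cannot be told apart in any value that sets one day against the other. At PND540, CTR replicate 5 stood apart: its median correlation with the other libraries of that day was 0.877, and that of the others was at least 0.962. Values without it are given beside the results that it moves most. Levels are CPM scaled by TMM over the genes named in both tables, so that all 16 libraries share a scale, and 3 counts correspond to 0.0778 to 0.126 CPM per library. Fold changes are on the log2 scale and come from the edgeR fit of each comparison, with standard errors (SE) and p-values adjusted by Benjamini-Hochberg over all genes tested. A gene was called when its adjusted p was under 0.05.

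The gland expressed HoxB and HoxD. A mean of at least 1 CPM in a diet group was reached by 15 members at PND21, 8 in HoxB and 7 in HoxD, with none in HoxA or HoxC. At PND540 it was reached by 19 members, again 8 in HoxB and 7 in HoxD, with 3 in HoxC and 1 in HoxA. The HoxA member, Hoxa10, has no entry at PND21, so the days cannot be compared for it. HoxB held 63.9% to 80.4% of the summed Hox CPM of a library and HoxD 19.4% to 34%. All Hox genes together summed to 746 to 821 CPM at PND21 and 882 to 1340 CPM at PND540, so the days did not overlap. The PND540 sums include HoxA symbols that are absent at PND21, and HoxA held at most 0.295% of a library's sum.

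**Figure D1:**
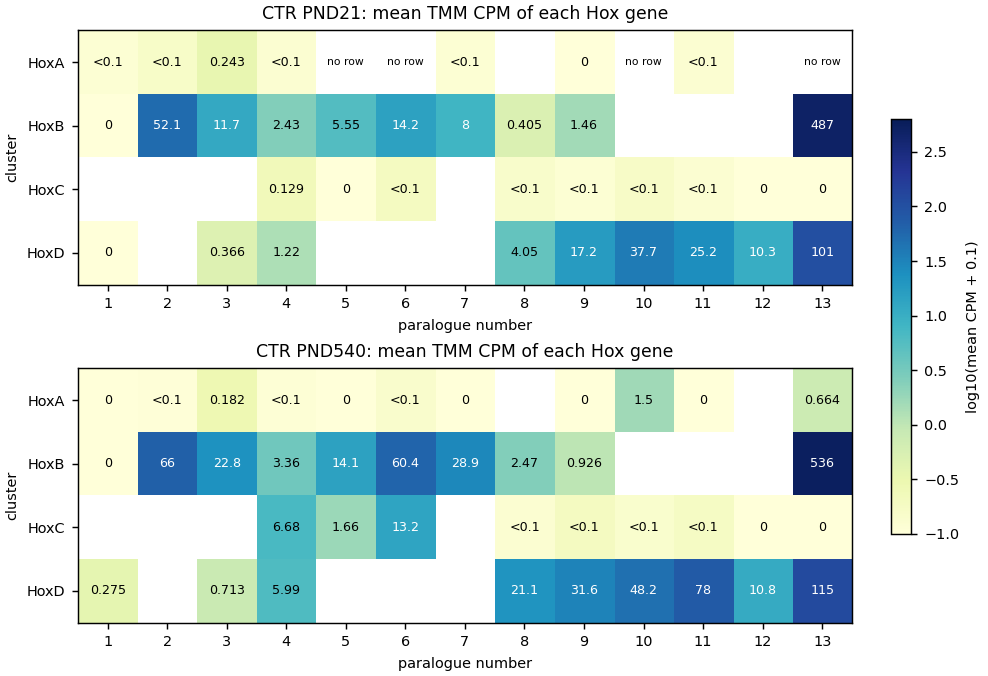
Mean TMM CPM of each Hox gene in CTR libraries, by cluster (rows) and paralogue number (columns), at PND21 (4 libraries, top) and PND540 (5 libraries, bottom). Colour is log10 of the mean CPM plus 0.1, blank squares are combinations with no member, and "no row" marks symbols that the PND21 table does not name. Hoxb13 is the highest at both days, at 487 and 536 CPM.

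Hoxb13 took more counts than any other member in every library. At PND21 it measured 487.9, 475.5, 450.9 and 533.4 CPM in the 4 CTR libraries and 460.2, 551.1 and 489.9 CPM in the 3 GLLP libraries. At PND540 it measured 662.0, 530.9, 575.3, 395.3 and 515.7 CPM in CTR and 573.7, 462.1, 737.8 and 458.9 CPM in GLLP. The 4 groups overlapped, with the widest spread at PND540. Hoxb13 alone made up 38.5% to 67.1% of the summed Hox CPM of a library, and the share of paralogue 13 as a whole ran from 47.3% to 79.6%. Set per kilobase of gene span in RefSeq's GRCr8 annotation, introns included, the mean of Hoxb13 was 214 to 245 CPM in the 4 groups. Hoxd13 came next on that scale, at 26.3 to 35.1 CPM per kilobase.

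Hoxd13, the most posterior gene of HoxD, took the next most counts in the mean of each group. Its levels at PND21 were 108.9, 99.32, 93.91 and 102.0 CPM in CTR and 93.24, 95.99 and 72.81 CPM in GLLP. At PND540 they were 130.9, 96.45, 118.6, 111.5 and 118.4 CPM in CTR and 110.5, 124.8, 115.3 and 114.8 CPM in GLLP. All 4 GLLP libraries of PND540 lay above the 3 of PND21, while the CTR libraries of the 2 days overlapped.

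Hoxb2 belongs to the anterior end of its cluster. It measured 50.41, 57.08, 64.22 and 36.85 CPM in CTR and 62.07, 31.17 and 48.77 CPM in GLLP at PND21. The PND540 values were 65.92, 72.19, 72.6, 61.63 and 57.77 CPM in CTR and 67.16, 53.55, 90.19 and 77.06 CPM in GLLP. These groups overlapped within and across days. On the per kilobase scale its group means of 19.8 to 30.1 CPM were close to those of Hoxd13, so the expressed Hox genes were not limited to the posterior end of the clusters.

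Hoxd10 and Hoxd11 lie beside each other in HoxD. Hoxd10 had 41.97, 35.6, 37.05 and 36.16 CPM in CTR and 38.45, 34.88 and 29.79 CPM in GLLP at PND21. At PND540 it had 43.06, 37.74, 34.42, 64.5 and 61.45 CPM in CTR and 38.82, 41.56, 37.67 and 50.62 CPM in GLLP. Its libraries overlapped between the days in CTR and in GLLP.

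Hoxd11 had 25.53, 27.0, 23.03 and 25.46 CPM in CTR and 23.9, 23.57 and 16.87 CPM in GLLP at PND21. At PND540 it had 75.81, 53.92, 52.88, 62.39 and 144.7 CPM in CTR and 51.76, 60.27, 60.79 and 65.35 CPM in GLLP. Every PND540 library was above every PND21 library, and the highest value was that of CTR replicate 5. Per kilobase of span, the CTR means of Hoxd10 and Hoxd11 were 11.7 and 11.0 CPM at PND21 and 15.0 and 33.97 CPM at PND540.

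Hoxb6 had 12.72, 12.03, 21.19 and 11.07 CPM in CTR and 19.14, 15.69 and 21.08 CPM in GLLP at PND21. At PND540 it had 25.38, 50.0, 42.29, 50.49 and 134.0 CPM in CTR and 42.78, 45.39, 34.64 and 69.21 CPM in GLLP. Every PND540 library again lay above every PND21 library, and CTR replicate 5 was the highest.

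**Figure D2:**
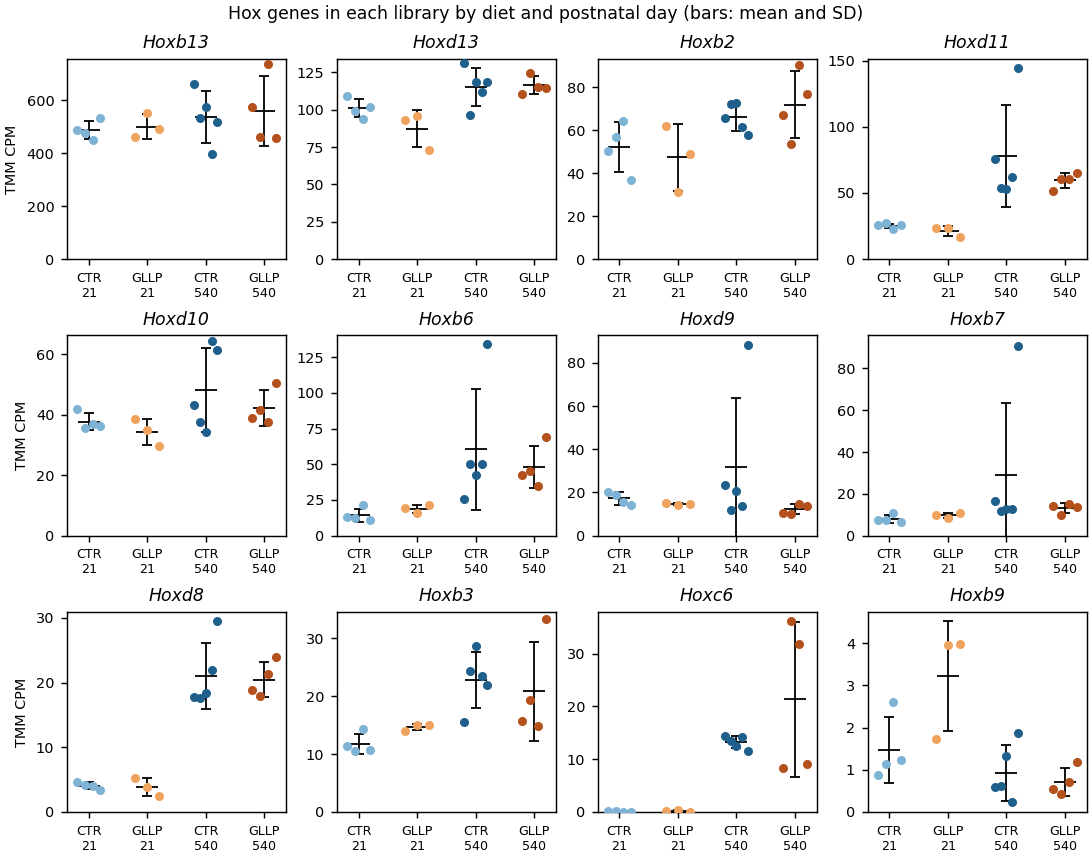
TMM CPM (linear axes from 0) of 12 Hox genes in each library, by diet (CTR, GLLP) and postnatal day (21, 540). Points are libraries in order of replicate number, and bars give the group mean and SD. Hoxb13 overlaps between all groups, whereas Hoxd11, Hoxd8 and Hoxb6 separate the days. CTR replicate 5 of PND540 is the isolated high point for Hoxd9 and Hoxb7.

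Most other HoxB members were also expressed. At PND21 Hoxb3 measured 11.7 ± 1.75 CPM in the CTR group (mean ± SD, n = 4) and 14.7 ± 0.584 CPM in GLLP (n = 3). Hoxb7 measured 8.00 ± 1.91 and 9.63 ± 1.25 CPM, and Hoxb5 5.55 ± 1.65 and 7.59 ± 1.10 CPM in the same groups. Hoxb4 averaged 2.43 ± 0.723 and 2.67 ± 0.620 CPM, and Hoxb9 1.46 ± 0.782 and 3.23 ± 1.30 CPM. Hoxb8 averaged 0.405 ± 0.168 and 0.465 ± 0.280 CPM, and Hoxb1 had no count at PND21. Per kilobase of span, the CTR order at PND21 within HoxB was Hoxb13, Hoxb2, Hoxb5, Hoxb7, Hoxb6 and Hoxb4, with Hoxb5 and Hoxb7 at 2.51 and 2.34 CPM. This order depends on the spans, which are 8737 bases for Hoxb6 and 24655 for Hoxb3, against 2209 for Hoxb5.

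At PND540 the same genes averaged as follows in CTR (n = 5) and GLLP (n = 4). Hoxb3 had 22.8 ± 4.77 and 20.9 ± 8.57 CPM, and Hoxb5 had 14.1 ± 7.84 and 10.3 ± 4.98 CPM. Hoxb7 had 28.9 ± 34.7 and 13.2 ± 2.17 CPM, the first resting on CTR replicate 5. Hoxb4, Hoxb8 and Hoxb9 stayed under 4 CPM, with Hoxb8 at 2.47 ± 1.69 and 1.93 ± 0.815 CPM and Hoxb9 at 0.926 ± 0.664 and 0.717 ± 0.332 CPM. Hoxb4 averaged 3.36 ± 1.69 and 2.74 ± 1.21 CPM.

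In HoxD the CTR means per kilobase of span at PND21 were 30.5 CPM for Hoxd13 and 7.88 to 11.7 CPM for Hoxd9 to Hoxd12. They were 1.58 CPM for Hoxd8 and at most 0.0622 CPM for Hoxd4, Hoxd3 and Hoxd1. The spans of Hoxd4 and Hoxd3, introns included, are 19577 and 16103 bases, against 2567 for Hoxd8, which lowers their values on this scale. Hoxd9 averaged 17.2 ± 2.86 CPM in CTR and 14.5 ± 0.414 CPM in GLLP at PND21, and 31.6 ± 32.1 and 12.3 ± 2.38 CPM at PND540. For Hoxd12 the values were 10.3 ± 2.44 and 8.04 ± 1.47 CPM at PND21, and 10.8 ± 6.05 and 8.78 ± 2.85 CPM at PND540. Hoxd8 averaged 4.06 ± 0.509 and 3.87 ± 1.37 CPM at PND21, against 21.1 ± 5.08 and 20.5 ± 2.73 CPM at PND540. Hoxd4 averaged 1.22 ± 0.301 and 1.55 ± 0.130 CPM at PND21, with 5.99 ± 1.53 and 5.06 ± 2.28 CPM at PND540. Hoxd3 stayed under 1 CPM in all group means, and Hoxd1 had at most 2 counts in a PND21 library and 4 to 20 counts at PND540.

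Most HoxC and HoxA members were near the floor. Hoxc8 to Hoxc11 had at most 20 counts in any library, Hoxc12 and Hoxc13 had none in any, and no group mean of these 6 reached 1 CPM. Hoxc4, Hoxc5 and Hoxc6 had group means above 1 CPM only at PND540, where HoxC held 1.39% to 5.21% of the summed Hox CPM. In HoxA, Hoxa10 was the one member with a group mean above 1 CPM, at 1.504 ± 0.909 CPM in CTR (n = 5) and 1.07 ± 0.295 CPM in GLLP (n = 4) of PND540. Hoxa13 averaged 0.664 ± 0.630 and 0.614 ± 0.587 CPM there, and Hoxa3 had at most 23 counts in a library. The names of HoxA rows are uncertain: in the PND540 table these genes stand in 2 separate blocks with entries under other symbols between them. RefSeq also lists Hoxa10 as an older name of Hoxa11, Hoxa11 of Hoxa2, Hoxa9 of Hoxa7, and Hoxc8 of Hoxc9. A low HoxA level in these tables therefore covers the rows that carry those names, not every transcript of the cluster.

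The regions before 4 HoxD genes are shown because 2 of them, Hoxd8 and Hoxd11, were called higher with age under both diets, while Hoxd10 between them was called under neither. Hoxd4, also called higher under both diets, is not shown. Hoxd13, called in GLLP only, took the most counts of the cluster. Each is the 250 bases before the gene's start in RefSeq's GRCr8 annotation, on the plus strand, 5′ to 3′: chr3:79977827-79978076 for Hoxd13, chr3:79992144-79992393 for Hoxd11, chr3:80001697-80001946 for Hoxd10 and chr3:80014973-80015222 for Hoxd8. Capitals mark a match on either strand to TATAAA (the TATA box), TGATNNAT (a core that Hox and Pbx proteins bind together) or TTTTAT (a core that posterior Hox proteins bind).
Hoxd13: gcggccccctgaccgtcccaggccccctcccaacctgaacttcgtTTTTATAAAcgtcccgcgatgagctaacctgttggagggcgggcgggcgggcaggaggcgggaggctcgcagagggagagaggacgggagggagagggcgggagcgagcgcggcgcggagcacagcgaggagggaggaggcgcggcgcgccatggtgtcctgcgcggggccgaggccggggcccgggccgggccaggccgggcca
Hoxd11: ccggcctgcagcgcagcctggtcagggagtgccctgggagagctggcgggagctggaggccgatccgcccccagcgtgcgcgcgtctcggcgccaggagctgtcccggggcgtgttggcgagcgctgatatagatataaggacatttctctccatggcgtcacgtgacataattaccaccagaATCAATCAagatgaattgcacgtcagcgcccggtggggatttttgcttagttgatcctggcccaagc
Hoxd10: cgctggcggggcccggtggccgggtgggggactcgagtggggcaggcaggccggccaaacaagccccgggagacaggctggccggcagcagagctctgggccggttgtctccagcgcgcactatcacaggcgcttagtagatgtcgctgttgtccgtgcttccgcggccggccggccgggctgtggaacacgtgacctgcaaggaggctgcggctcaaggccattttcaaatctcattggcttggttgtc
Hoxd8: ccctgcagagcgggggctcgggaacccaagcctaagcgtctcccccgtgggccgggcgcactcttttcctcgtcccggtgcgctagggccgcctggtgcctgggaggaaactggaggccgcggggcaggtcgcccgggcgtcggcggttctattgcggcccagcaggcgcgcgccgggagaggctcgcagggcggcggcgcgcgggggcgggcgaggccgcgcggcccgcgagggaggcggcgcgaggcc

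Hoxd13 holds TATAAA and TTTTAT, which overlap in the capitals, and Hoxd11 holds TGATNNAT on the other strand. Hoxd10 and Hoxd8 hold none of the 3 in this window. Over all 33469 RefSeq promoter entries of the same length, 12.9% held TATAAA, 7.96% TGATNNAT and 18.6% TTTTAT. Promoters were found for 20 of the 39 symbols, in 21 entries, and TGATNNAT stood also in those of Hoxa2 and Hoxb1. CG dinucleotides numbered 38 for Hoxd8, 30 for Hoxd13, 21 for Hoxd10 and 20 for Hoxd11. The median was 20 over the Hox entries and 5 over all entries. Hoxd8 and Hoxd11, called under both diets, thus shared no motif of the 3. Hoxd4, called under both diets but not shown, held TTTTAT and neither of the others. These matches describe letters only.

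Maternal diet gave no called Hox gene at PND21. Of 35 members in that table, 18 passed the filter on low counts, and edgeR called 0 of the 18, where 1.11% of all 14915 genes tested were called (166 genes), 1.01% higher and 0.107% lower in GLLP. Unadjusted p was under 0.05 for 3 of the 18 and for 2873 of all 14915 genes, and DESeq2 also called 0. The median log2 fold change of the 18, GLLP over CTR, was 0.12, beside -0.0038 over all genes tested. In HoxB 8 of 9 tested members had a positive value, with a median of 0.27, and in HoxD 6 of 8 had a negative one, with a median of -0.17. With library size as the only scaling, which shifted the all-gene median by 0.14, there were 13 positive values of 18, against 11 with TMM. Summed markers of other cells also separated the diets at PND21. Secretory genes summed to 66790 to 83370 CPM in CTR and 46110 to 64580 in GLLP, leukocyte genes to 16.9 to 20.4 and 22.9 to 28.2 CPM, and nerve genes to 14.4 to 17.6 and 19.8 to 22.9 CPM. Fibroblast sums overlapped, at 3967 to 5875 and 5685 to 7149 CPM. Their part in the Hox values was not tested.

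Hoxc10, a posterior HoxC gene, had the smallest p, but it passed the filter through the GLLP libraries alone, where it was high. It had 2, 6, 0 and 0 counts in the 4 CTR libraries and 16, 12 and 20 counts in the 3 GLLP libraries of PND21. The groups did not overlap, and all values were under 1 CPM. The log2 fold change was 2.88 (SE 0.804, edgeR adjusted p = 0.116). The 8 listed skeletal muscle markers, 6 of which are in the PND21 table and none at 0, summed to 12.3 to 19.1 CPM in CTR and 345.8 to 625 CPM in GLLP of PND21. Their part in the Hoxc10 value was not tested.

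Hoxb9 and Hoxb3 had the next smallest p at PND21. Hoxb9 measured 0.867, 1.134, 2.61 and 1.23 CPM in CTR and 1.72, 3.967 and 3.987 CPM in GLLP, with a log2 fold change of 1.15 (SE 0.420, edgeR adjusted p = 0.194). The groups overlapped through CTR replicate 3. Hoxb3 gave a log2 fold change of 0.32 (SE 0.140, edgeR adjusted p = 0.252). For the abundant posterior genes the differences were small: 0.042 (SE 0.102) for Hoxb13 and -0.21 (SE 0.110) for Hoxd13. Hoxd11 gave -0.23 (SE 0.139) and Hoxb2 -0.14 (SE 0.246).

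**Figure D3:**
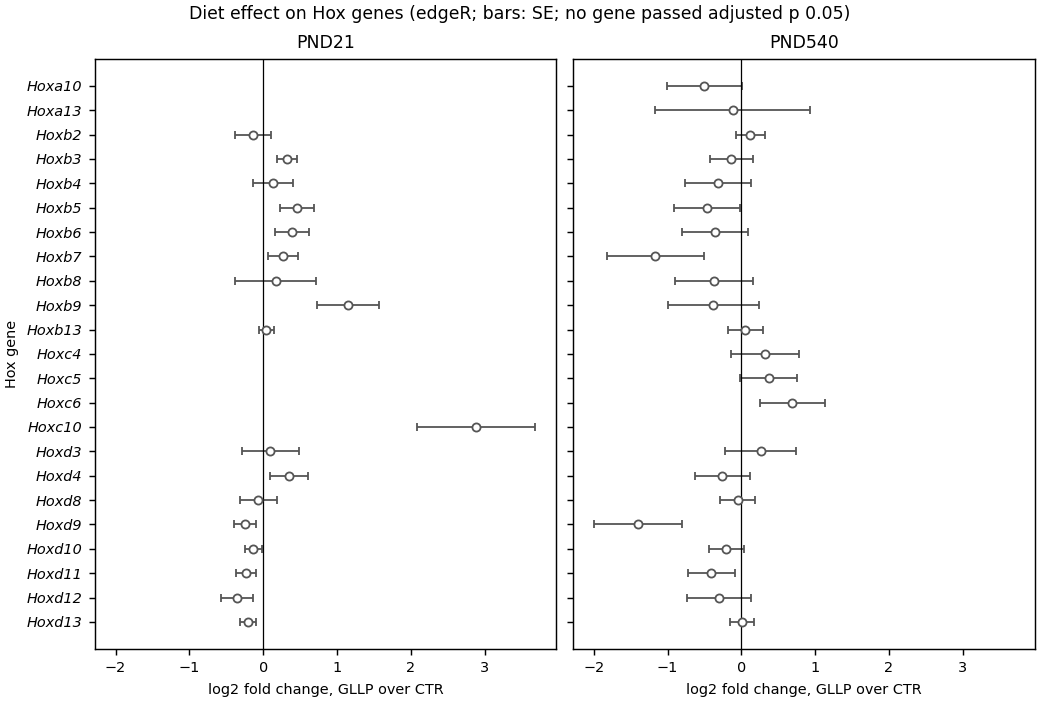
Log2 fold change, GLLP over CTR, of the tested Hox genes at PND21 (left, 18 genes) and PND540 (right, 22 genes) from edgeR on a shared axis. Bars are SE, and open points mark genes that were not called, which is every gene here. Hoxc10 at PND21 lies farthest to the right, and Hoxd9 and Hoxb7 at PND540 farthest to the left.

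At PND540 no Hox gene was called for diet either. Among the 22 members that passed the filter edgeR called 0, and over all 14767 genes tested it called 0%. DESeq2 called 0 of the 22. One member, Hoxd9, had an unadjusted p under 0.05, with a log2 fold change of -1.40 (SE 0.596, edgeR adjusted p = 0.914). Hoxb7 followed in size at -1.17 (SE 0.661). Both rested on CTR replicate 5: without it the values were -0.50 (SE 0.262) for Hoxd9 and -0.018 (SE 0.195) for Hoxb7. Over the 22 members the median was -0.23, beside -0.00030 over all genes, with 15 negative values. Without CTR replicate 5 that median was 0.035, with 10 negative values of 22.

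The HoxC genes expressed at PND540 varied within the GLLP group. Hoxc6 measured 8.321, 36.09, 31.87 and 9.108 CPM in GLLP and 14.32, 13.41, 12.43, 14.13 and 11.61 CPM in CTR. GLLP replicates 2 and 3 lay above all CTR libraries, and replicates 1 and 4 below them. The log2 fold change of 0.69 (SE 0.435) did not pass. For Hoxc4 the same 2 GLLP libraries lay above CTR and the same 2 below, at 3.629, 9.121, 16.95 and 3.725 CPM in GLLP against 5.262 to 8.07 CPM in CTR. For the leading members the diet values were 0.054 (SE 0.237) for Hoxb13, 0.0070 (SE 0.166) for Hoxd13 and 0.12 (SE 0.193) for Hoxb2.

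All Hox calls came with age. In CTR, edgeR called 10 of the 20 tested members higher at PND540 and none lower, where 30.5% of all 13510 genes tested were called, 17.3% higher and 13.2% lower. The 10 were Hoxb3, Hoxb5, Hoxb6, Hoxb8, Hoxc4, Hoxc5, Hoxc6, Hoxd4, Hoxd8 and Hoxd11. Of the 20, 19 had a positive value, and the median log2 fold change was 1.16, beside 0.070 over all genes. In GLLP, 9 of 21 were called higher and 2 lower, where 36.2% of 13694 genes were called, 19.1% higher and 17.1% lower. The median there was 0.50, beside 0.019 over all genes. With library size as the only scaling, the all-gene median shifted by -0.12 in CTR and -0.18 in GLLP, with 10 members called higher in CTR and 8 higher and 2 lower in GLLP.

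By paralogue group the calls fell as follows. Of paralogues 4 to 8, 8 of 10 tested members were called higher in CTR and 7 of 10 in GLLP. Hoxc4, Hoxc5 and Hoxc6 passed the filter only through PND540, and without them the counts were 5 of 7 and 4 of 7. Hoxb8 also passed only through PND540, and it is still included in those counts. Of paralogues 1 to 3, 1 of 3 was called higher in CTR, Hoxb3, and 0 of 3 in GLLP. Of paralogues 9 to 13, 1 of 7 was called in CTR, Hoxd11, and in GLLP 2 of 8 were higher and 2 lower. Paralogues 4 to 8 made up 3.69% to 6.47% of the summed Hox CPM in the libraries of PND21 and 8.47% to 24.0% in those of PND540. The highest share was that of CTR replicate 5, and the other PND540 libraries reached 15.8%.

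**Figure D4:**
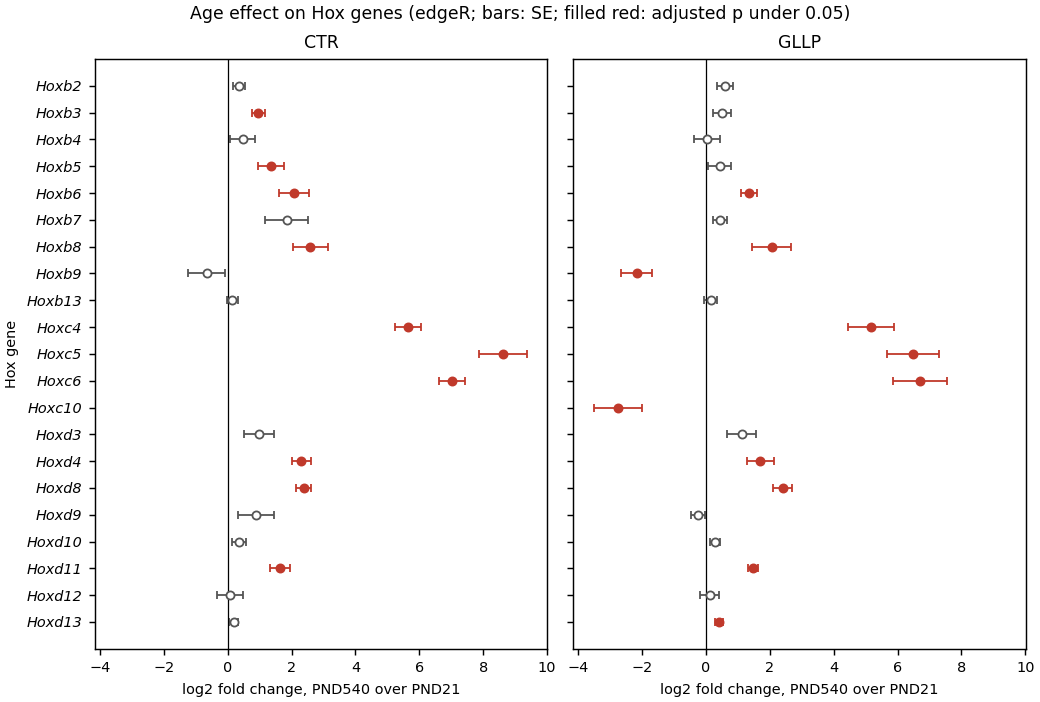
Log2 fold change, PND540 over PND21, of the tested Hox genes in CTR (left, 20 genes) and GLLP (right, 21 genes) from edgeR on a shared axis. Bars are SE, and filled red points are called genes. Hoxc4, Hoxc5 and Hoxc6 lie farthest to the right under both diets, while Hoxb13 sits near 0 at 0.14 and 0.15.

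In HoxD, Hoxd8 had 4.656, 4.158, 3.983 and 3.423 CPM in CTR at PND21 and 17.72, 17.66, 18.42, 21.94 and 29.59 CPM at PND540. In GLLP it went from 5.232, 3.889 and 2.488 CPM to 18.81, 17.88, 21.27 and 23.97 CPM. The days did not overlap under either diet, and the log2 fold change was 2.38 in CTR (SE 0.232, edgeR adjusted p = 6e-05) and 2.40 in GLLP (SE 0.286, adjusted p = 0.000301). Hoxd11 was higher by 1.63 in CTR (SE 0.311, edgeR adjusted p = 0.0033) and 1.46 in GLLP (SE 0.166, adjusted p = 0.000234). Hoxd4 was higher by 2.30 (SE 0.297) and 1.70 (SE 0.426). The GLLP call for Hoxd4 was lost without GLLP replicate 3 of PND21 (edgeR adjusted p = 0.0544).

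The neighbours Hoxd9, Hoxd10 and Hoxd12 were not called. Hoxd10 gave 0.36 in CTR (SE 0.219) and 0.29 in GLLP (SE 0.159). Hoxd12 gave 0.077 (SE 0.408) and 0.12 (SE 0.292). Hoxd9 gave 0.88 in CTR (SE 0.570), which became 0.014 without CTR replicate 5, and -0.25 in GLLP (SE 0.209).

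In HoxB, Hoxb6 was higher by 2.09 in CTR (SE 0.468, edgeR adjusted p = 0.00764) and by 1.36 in GLLP (SE 0.251, adjusted p = 0.00304). Hoxb8 was higher by 2.59 in CTR (SE 0.537) and 2.05 in GLLP (SE 0.619). It passed the filter only through the PND540 libraries, with 8 to 20 counts in CTR and 6 to 22 in GLLP at PND21. The GLLP call for Hoxb8 was lost without GLLP replicate 2 or 3 of PND21 or replicate 1 of PND540, with edgeR adjusted p of 0.0705, 0.0925 and 0.066. Hoxb3 was called in CTR at 0.96 (SE 0.216, edgeR adjusted p = 0.00739), and its GLLP value of 0.50 (SE 0.293) did not pass. Hoxb5 was called in CTR at 1.35 (SE 0.407, edgeR adjusted p = 0.0308), with 0.43 (SE 0.359) in GLLP. The Hoxb5 call was lost without CTR replicate 1, 2 or 4 of PND21 or replicate 4 of PND540, at edgeR adjusted p of 0.0916, 0.0834, 0.0868 and 0.0551. In RefSeq the antisense gene Hoxb5os overlaps the spans of Hoxb5 and Hoxb6, and since the use of strand in counting is not given, its reads and theirs cannot be told apart.

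Hoxb7 depended on the library that stands apart. Its age value in CTR was 1.85 (SE 0.674, edgeR adjusted p = 0.0637), and without CTR replicate 5 it was 0.74 (SE 0.198, adjusted p = 0.0120), which made 11 called members where 49.0% of all genes were called. Leaving out that library lowered Hoxb6 to 1.56, Hoxb5 to 0.97 and Hoxb8 to 2.09, each still called.

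The paralogue 13 genes had small age values. Hoxb13 gave 0.14 (SE 0.178, edgeR adjusted p = 0.586) in CTR and 0.15 (SE 0.198, adjusted p = 0.609) in GLLP, although the sign in GLLP turned to -0.055 when libraries were scaled by size alone. Hoxd13 gave 0.19 in CTR (SE 0.142), not called, and 0.40 in GLLP (SE 0.135, edgeR adjusted p = 0.0440). The GLLP call for Hoxd13 was lost in all 7 fits that left out a library, with edgeR adjusted p of 0.0713, 0.0873, 0.131, 0.0731, 0.0914, 0.0577 and 0.0581. Hoxb2 gave 0.34 (SE 0.185) and 0.59 (SE 0.255) and was called in neither.

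Both members called lower were in GLLP. Hoxb9 went from 1.72, 3.967 and 3.987 CPM at PND21 to 0.5499, 0.4292, 0.7017 and 1.185 CPM at PND540, and fell by 2.17 on the log2 scale (SE 0.486, edgeR adjusted p = 0.00769). Hoxc10 had 12 to 20 counts in the PND21 libraries and 0 to 4 in those of PND540, and its log2 fold change was -2.76 (SE 0.752, edgeR adjusted p = 0.0194). It passed the filter through the PND21 libraries alone, whose skeletal muscle marker sum is given above, and the call was lost without GLLP replicate 2 or 4 of PND21 (adjusted p = 0.0596 and 0.0757). In CTR Hoxb9 gave -0.66 (SE 0.582), not called, and Hoxc10 was not tested.

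Hoxc4, Hoxc5 and Hoxc6 had the largest age values, and they passed the filter through PND540 alone. Hoxc6 measured 0.0332 to 0.189 CPM in CTR and 0.0638 to 0.363 CPM in GLLP at PND21, against at least 8.32 CPM in every library of PND540. Its log2 fold change was 7.02 in CTR (SE 0.411) and 6.71 in GLLP (SE 0.842). Hoxc4 averaged 0.129 ± 0.0756 CPM in CTR and 0.229 ± 0.0510 CPM in GLLP at PND21, and 6.68 ± 1.00 and 8.36 ± 6.28 CPM at PND540. Hoxc5 had 0 counts in all 4 CTR libraries of PND21 and 33 to 73 counts in the CTR libraries of PND540, at least 68.1-fold higher against 3 counts over the group. In GLLP it had 2 counts at PND21 and 241 at PND540, a ratio of 105 (exact 95% interval 28.9 to 875, counting error only).

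In RefSeq the span of Hoxc6, introns included, overlaps those of Hoxc5 and Hoxc4, so how a table splits reads among these 3 genes can depend on its annotation. Without the 3, 7 of 17 tested members were called higher in CTR, beside 17.3% of all genes, with a median of 0.96. In GLLP 6 were higher and 2 lower of 18, beside 19.1% and 17.1% of all genes, with a median of 0.44. Hoxb8, which also passed the filter only through PND540, is still counted as higher under both diets. Hoxd1 fell under the filter, with 0 counts in CTR at PND21 and 38 at PND540, at least 11.3-fold higher against 3 counts over the group.

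CTR and GLLP each have their own libraries at both days, so the 2 age comparisons share none. Both set the PND21 counts against the PND540 counts, so a difference in annotation between the days would enter both alike. Both called Hoxb6, Hoxb8, Hoxc4, Hoxc5, Hoxc6, Hoxd4, Hoxd8 and Hoxd11 higher, which is 8 genes, 80% of the CTR list and 88.9% of the GLLP list. Over all genes tested, the 1699 called higher under both diets were 72.7% and 65.1% of the lists. Hoxc4, Hoxc5 and Hoxc6, which entered the tests through PND540 alone, are 3 of the 8. Hoxb8, also among the 8, likewise entered only through PND540. Whether the age value differed between the diets was tested as an interaction over all 16 libraries. EdgeR called 0 of 23 tested members, where 0.0917% of 14178 genes were called (13 genes, all lower). No member had an unadjusted p under 0.05, and DESeq2 called 0. Hoxb9 had the smallest p, at -1.50 (SE 0.811, edgeR adjusted p = 0.738), and Hoxb13 gave 0.019 (SE 0.267).

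Cell type markers differed between the days. The 6 fibroblast markers summed to 3967 to 7149 CPM at PND21 and 67.0 to 595 CPM at PND540, and the 5 smooth muscle markers to 3286 to 4106 and 527 to 1595 CPM. The 5 luminal epithelial markers summed to 2019 to 2552 CPM at PND21 and 2980 to 7046 CPM at PND540. In bulk tissue, fewer cells of a type and less RNA per cell cannot be told apart, and the part of these shifts in the Hox values was not tested.

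CTR replicate 5 of PND540, whose median correlation with the other libraries of its day was 0.877, also differed in its Hox values. Of the 19 members with at least 1 CPM in a group of that day, it lay above the other 8 libraries for 10, below them for 1 and within their range for 8. The share of all genes outside that range was not counted, so this is not shown to be particular to Hox genes. Hoxb7 was at 90.96 CPM, where the others had 10.05 to 16.63, which is 6.90 times their median. Hoxd9 was at 88.3 CPM, where the others had 9.87 to 23.54, which is 6.44 times their median. The ratio was 3.04 for Hoxb6, 2.98 for Hoxb8, 2.70 for Hoxb5 and 2.39 for Hoxd11. Hoxd12 was the one below, at 3.95 CPM against 6.55 to 20.27. Hoxb13, Hoxd13, Hoxb2 and Hoxc6 lay within the range. This library also had the highest luminal sum (7046 CPM) and the highest basal sum (1356 CPM) of its day. Its fibroblast sum was 78.96 CPM and its smooth muscle sum 1575 CPM. Its Pbsn level of 0.03909 CPM was the lowest of that day. The part of these markers in its Hox values was not tested.

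**Figure D5:**
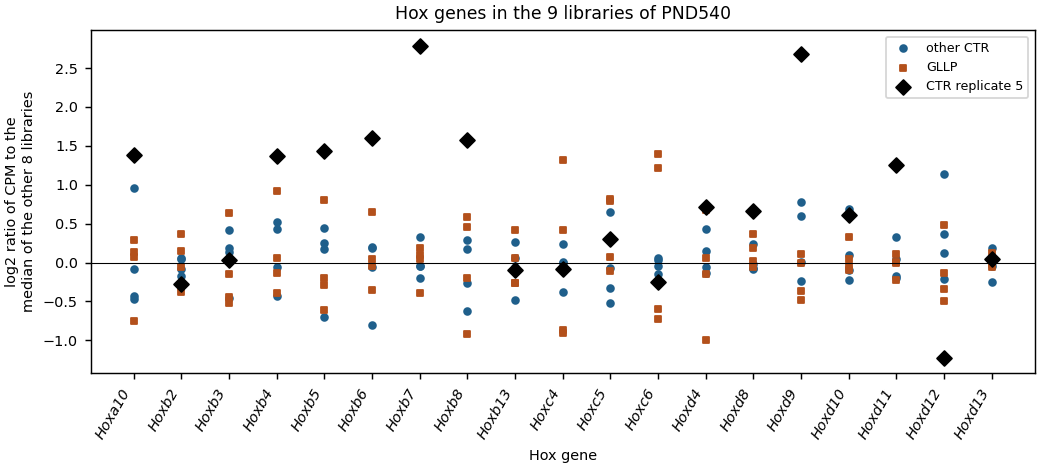
Log2 ratio of the CPM of each Hox gene with at least 1 CPM at PND540 to the median of the 8 libraries other than CTR replicate 5. Black diamonds are CTR replicate 5, blue circles the other CTR libraries and orange squares the GLLP libraries. Hoxb7 and Hoxd9 of that library lie farthest above the rest, and Hoxd12 below.

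TALE cofactors are the DNA-binding partners of Hox proteins. In CTR 0 of 8 tested were higher with age and 1 lower, where 13.2% of all genes were called lower: Meis2 fell by 2.04 on the log2 scale (SE 0.320, edgeR adjusted p = 0.00111), from 39.6 ± 1.37 CPM (n = 4) to 9.62 ± 4.13 CPM (n = 5). In GLLP 0 were higher and 3 lower of 9, where 17.1% of all genes were called lower. At PND21 the diet value of Meis2 was 0.55 (SE 0.120, edgeR adjusted p = 0.0708).

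Of the retinoid signalling genes, which cover synthesis, binding, breakdown and receptors of retinoic acid, 0 of 16 were higher and 2 lower with age in CTR, beside 13.2% called lower over all genes. Crabp1, a cellular retinoic acid binding protein, gave -3.51 (SE 0.696), and Rdh10, an enzyme of retinaldehyde synthesis, gave -1.26 (SE 0.258). Crabp1 passed the filter through the PND21 libraries, at 2.67 ± 0.6025 CPM, and averaged 0.228 ± 0.2075 CPM at PND540. In GLLP 8 of 16 were lower and 0 higher, beside 17.1% and 19.1% over all genes. No retinoid gene was called for diet at PND21, where Rxrg, a retinoid X receptor, had the smallest p at 1.54 (SE 0.332, edgeR adjusted p = 0.0701).

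Other transcription factors of the urogenital tract split both ways with age: 4 of 18 were higher and 3 lower in CTR, and 4 of 19 were higher and 4 lower in GLLP. The shares over all genes were 17.3% higher and 13.2% lower in CTR, and 19.1% and 17.1% in GLLP. In CTR the higher ones included Foxq1, at 4.39 ± 1.48 CPM (n = 4) and 56.4 ± 30.3 CPM (n = 5), with Pax8 and Tbx3. Pax8 passed the filter only through PND540, at 0.0411 ± 0.0314 CPM at PND21 and 0.656 ± 0.307 CPM at PND540. Tbx3, a T-box factor, measured 240.3 ± 36.4 and 484 ± 117 CPM. Osr2, Isl1 and Tbx5 were lower by 1.58, 2.57 and 1.47 on the log2 scale. Genes beside or antisense in the Hox clusters gave 0 called of 8 in CTR, where Cbx5, beside HoxC, had the smallest p (-0.65, SE 0.223, edgeR adjusted p = 0.0506) and Snx10, beside HoxA, came next (1.05, SE 0.426). In GLLP 2 of 8 were higher and 1 lower. Neither diet comparison called a member of these 4 lists, by edgeR.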

How the data were processed

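Counts of mRNA reads per gene were deposited by the authors as raw whole numbers in 2 tables, 1 per postnatal day. The submitters' processing notes list the build Rnor_6.0 with STAR and edgeR 3.34.0, without roles. How reads were counted, with which annotation and strand setting, is not given in the sources used here. Libraries held 28748604 to 39161666 counts, and 82.5% to 92.0% lay in the 19709 genes named in both tables. Replicate pairs differed far beyond sampling noise (chi-square per degree of freedom 32.2 to 880).

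Levels are CPM over the shared genes with TMM factors of all 16 libraries. Tests used edgeR 4.0.16 in R 4.3.3: filterByExpr (minimum count 10), TMM, robust quasi-likelihood fits, and Benjamini-Hochberg adjustment over all genes tested. Diet was fitted within each day (7 and 9 libraries), age within each diet over shared genes (9 and 7 libraries), and the interaction over all 16. The fits were tested on simulated counts.

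The members, gene lists and naming rule were chosen with earlier results of these data known. By that rule, every library is given for the 6 members with the highest group mean and group means for others of at least 1 CPM; other genes named are the called ones with the smallest p. Values per library for Hoxd8, Hoxb9, Hoxc6, Hoxc4 and Hoxc10 were added after they were seen. Lengths are RefSeq gene spans, since transcript lengths and protein sequences were not used here. Alternatives were DESeq2 1.42.0, RLE size factors, scaling by library size alone, a filter at 1 CPM or none, non-robust dispersions, a joint fit, a replicate block and leaving out each library. Figures used matplotlib 3.10.9.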

Additional observations from a re-analysis of the deposited data

Results flagged for a closer look

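Within a group of 4 or 5 libraries, 6 Hox values stood far from the rest by Dixon's test at 95%, of 76 groups of values tested; chance flags about 1 in 20 groups. In CTR replicate 5 of PND540, which also stood apart in its correlation with the other libraries, there were 5 of them. Hoxb6 was at 134.0 CPM, with the other CTR libraries at 25.38 to 50.49. Hoxb7 was at 90.96 CPM, with the others at 11.53 to 16.63. Hoxb8 was at 5.394 CPM, with the others at 1.173 to 2.213. Hoxd9 was at 88.3 CPM, with the others at 11.63 to 23.54. Hoxd11 was at 144.7 CPM, with the others at 52.88 to 75.81. The remaining value was Hoxb6 in CTR replicate 3 of PND21, at 21.19 CPM, with the others at 11.07 to 12.72.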

How the results depend on the processing

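The number of Hox genes called stayed within 1.5 times its value under every alternative run: 0 for both diet comparisons and for the interaction, 9 to 11 for age in CTR and 8 to 10 for age in GLLP when 1 library was left out. Other settings gave 10 to 12 in CTR and 9 to 11 in GLLP. The number of all genes called for diet at PND21 moved more, from 166 to 972 with DESeq2, 650 with library size alone, 40 in the joint fit and 27 with the replicate block. DESeq2 called 2 genes for diet at PND540, and 46 for the interaction against 13. With the replicate block, 12 Hox genes were called for age in CTR, 9 in GLLP and 0 elsewhere. The median Hox value for diet at PND540 was then 0.020, against -0.23 without the block. Correlations of same-numbered deviations ran from -0.146 to 0.286, and not every sample matched its own number best. Such correlations cannot show whether replicate numbers pair the samples. The age call in GLLP of Hoxd13 was also lost with RLE size factors (adjusted p = 0.0508), library size alone (0.290), no filter (0.0558) and the replicate block (0.132), and that of Hoxd4 with the block (0.0501). The cause was not tested. The sign of Hoxb13 turned: its age value in GLLP was -0.055 with library size alone. Its interaction was -0.00047 with RLE size factors and with DESeq2, -0.064 with library size alone and -0.025 with the replicate block. Leaving out 1 library, Hoxb13 ran from -0.032 to 0.10 for diet at PND21, -0.12 to 0.16 for diet at PND540, -0.013 to 0.24 for age in GLLP and -0.15 to 0.10 for the interaction. The Hoxc5 interaction ran from -2.60 to 0.38, the last without GLLP replicate 3 of PND21, the one library of its group with counts. Depth limits the low members: a library with 3 counts is at 0.0778 to 0.126 CPM.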

Other observations

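Hoxa13, named only in the PND540 table, varied within both diet groups of that day. It had 10, 41, 38, 8 and 0 counts in the 5 CTR libraries and 30, 32, 3 and 3 counts in the 4 GLLP libraries. CTR replicate 5, which was high for Hoxb7 and Hoxd9, was the library without a count of Hoxa13, which allows up to 0.117 CPM (3 counts, counting error only). Hoxd12 spread widely in CTR of PND540, at 20.27, 7.976, 10.04, 11.93 and 3.948 CPM, while Hoxd13 beside it stayed between 96.45 and 130.9 CPM in the same 5 libraries.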
